A study of Mus musculus with 12 samples.

Results

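The 38 genes described here are the ATF4-linked genes of amino-acid synthesis and transport, together with the cytosolic aminoacyl-tRNA synthetases. They were taken from a list of gene symbols, and the rule uses no measured value. All 38 were found among the 52636 gene identifiers in the count files, and all 38 passed the filter on low counts. By role they fall into 5 genes of serine, glycine and one-carbon synthesis, 3 of proline and asparagine synthesis, 4 amino-acid transporters, 2 of transsulfuration, 3 stress effectors, 19 genes of cytosolic tRNA synthetases and 2 scaffold proteins of the synthetase complex.

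RNA was sequenced from 12 bulk tumors grown from 2153L, a genetically engineered mouse mammary tumor transplanted into the fat pad of female Balbc mice and labelled TNBC, triple-negative breast cancer. The tumors were transduced with an empty vector (EV), the control, or with p53ERTAM, a form of p53 that tamoxifen switches on, and the series' design calls the latter tumors p53 restored. For 8 days mice of each vector received vehicle or combo, which joins docetaxel (20 mg/kg weekly), a drug that stabilises microtubules, to ORIN1001 (150 mg/kg daily), which blocks the RNase activity of IRE1α, a sensor of unfolded protein. This gave 4 groups of 3 tumors: EV vehicle, EV combo, p53ERTAM vehicle and p53ERTAM combo. The labels give neither the age of the mice nor which mice received tamoxifen, every tumor comes from 1 tumor line, and no group received ORIN1001 or docetaxel alone, so the parts of the 2 drugs cannot be told apart. The labels number the tumors of a group without saying what separates them, and the p-values measure the spread between these samples.

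ATF4 is the transcription factor of the integrated stress response. It is translated when kinases that sense amino-acid shortage, unfolded protein, viral RNA or heme deficiency phosphorylate the initiation factor eIF2α. It binds with C/EBP partners at C/EBP-ATF response elements and switches on genes that make, import and load amino acids, and in mammary tumors serine synthesis and asparagine synthesis are well-studied parts of this program. Aminoacyl-tRNA synthetases join each amino acid to its tRNA, and several of them sit in a multi-synthetase complex held together by the AIMP scaffold proteins.

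The letters of the response element, TGATGNAA on either strand, were searched in promoters of the RefSeq table for build GRCm38.p6, each reaching from 250 bases before to 50 bases after a gene's start. Of 29 members in the table, 10 (34.5%) held a match: Pycr1, Asns, Slc7a11, Chac1, Trib3, Aars, Gars, Iars, Tars and Yars. Among all genes listed there, 1219 of 27025 (4.51%) held one, as did 1304 of 32851 promoters of the same length (3.97%). The stricter form TGATGCAA, which lies within the first motif, was in 7 of the 29 members (24.1%) and in 1.03% of all genes. The 9 members that were not in the table are Cth, Slc7a5, Cars, Hars, Lars, Nars, Rars, Vars and Wars. A match is a description of letters and was not tested as a binding site. The stretches around the match are given 5′ to 3′ on the gene's strand, with the match in capitals, for the 3 members in the table that rose with combo in p53ERTAM tumors (Slc7a11, Aars and Tars), for 2 that fell with combo in EV tumors (Asns and Gars), for Trib3, which stood highest in p53ERTAM tumors, and for Chac1, which edgeR called in no comparison.
Slc7a11, chr3:50443614-50443719, minus strand: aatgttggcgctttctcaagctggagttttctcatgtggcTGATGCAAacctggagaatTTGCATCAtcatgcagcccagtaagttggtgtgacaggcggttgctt
Aars, chr8:111033690-111033841, plus strand: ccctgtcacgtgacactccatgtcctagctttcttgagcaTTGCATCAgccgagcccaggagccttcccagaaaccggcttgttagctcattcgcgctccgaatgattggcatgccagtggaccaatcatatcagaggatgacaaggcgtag
Tars, chr15:11399659-11399713, minus strand: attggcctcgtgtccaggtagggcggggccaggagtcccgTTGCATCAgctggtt
Asns, chr6:7693210-7693272, minus strand: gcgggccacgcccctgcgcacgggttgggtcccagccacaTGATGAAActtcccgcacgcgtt
Gars, chr6:55037931-55038000, plus strand: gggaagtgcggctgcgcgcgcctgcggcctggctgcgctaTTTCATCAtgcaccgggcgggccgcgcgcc
Trib3, chr2:152344028-152344057, minus strand: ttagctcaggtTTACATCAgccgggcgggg
Chac1, chr2:119351009-119351096, plus strand: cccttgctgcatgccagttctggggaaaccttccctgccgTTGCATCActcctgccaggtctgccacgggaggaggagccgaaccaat

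Slc7a11 held 2 matches a few bases apart, one on each strand, and Aars held a further match outside the stretch shown. Those of Slc7a11, Aars, Tars and Chac1 read TGATGCAA, those of Asns and Gars TGATGAAA, and that of Trib3 TGATGTAA, which lies just after the start.

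Libraries held 13484873 to 24424964 counts. The 3 EV combo libraries stood apart in make-up: the noncoding gene Gm26917 took 10.7 to 11.1% of their counts against 0.133 to 1.10% elsewhere, and protein-coding genes took 80.9 to 81.7% against 86.7 to 95.8%. Differences were tested with edgeR's quasi-likelihood test, with Benjamini-Hochberg adjustment over 17970 genes and a threshold of 0.05 for a gene to be called. Of the p53 targets used to check the labels, Cdkn1a was 3.72-fold higher in p53ERTAM than in EV under vehicle (adjusted p = 0.00107) and 5.34-fold higher under combo (adjusted p = 0.000170). Mdm2 differed less, 1.37-fold higher under vehicle (adjusted p = 0.0157) and 1.40-fold higher under combo (adjusted p = 0.00987). Trp53 RNA gave a log2 fold change of 0.17 under vehicle (adjusted p = 0.356) and 0.40 under combo (adjusted p = 0.0338). The label TNBC held for Pgr RNA, which reached at most 1.41 CPM (counts relative to library size after TMM scaling), while Erbb2 RNA was at 189 to 322 CPM and Esr1 RNA at 5.31 to 38.9 CPM. Esr1 RNA split by vector, with means of 9.10 CPM in EV vehicle, 10.4 in EV combo, 30.6 in p53ERTAM vehicle and 37.5 in p53ERTAM combo. By edgeR it was 3.35-fold higher in p53ERTAM under vehicle (adjusted p = 0.000185) and 3.63-fold higher under combo (adjusted p = 6.4e-05). Whether RNA of the p53ERTAM construct enters the Esr1 counts was not tested. Summed over 10 epithelial markers, the level was 5398 to 6692 TPM in EV vehicle. TPM are counts corrected for gene length, relative to the total over all genes of a library, Gm26917 included, and without TMM scaling. EV combo lay at 3613 to 4793 TPM, p53ERTAM vehicle at 2450 to 3632 TPM and p53ERTAM combo at 3779 to 4683 TPM. Summed over 10 fibroblast markers it was 230.3 to 234 TPM, 469.8 to 915 TPM, 655 to 1355 TPM and 649 to 926 TPM in the same order of groups. In bulk tumors fewer cells of a type and less RNA per cell cannot be told apart, and the part of library make-up and cell content in the results below was not tested.

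The members as a whole stood highest in vehicle-treated EV tumors. The group mean was highest in EV vehicle for 27 of 38 members, and lowest in EV combo for 16 and in p53ERTAM vehicle for 15. This order was not counted over all genes. The median log2 fold change over protein-coding genes was also below 0 in both comparisons with EV vehicle, at -0.13 for EV combo and -0.07 for p53ERTAM vehicle. Together they took 0.403 to 0.450% of protein-coding counts in EV vehicle and 0.382 to 0.391% in EV combo. p53ERTAM vehicle lay at 0.355 to 0.365% and p53ERTAM combo at 0.357 to 0.371%. EV vehicle did not overlap any other group on this share, and the 2 p53ERTAM groups overlapped each other. Which groups overlapped depended on the measure. By the members' summed TPM, EV vehicle (2957.9 to 3533.5) overlapped p53ERTAM combo (2862.2 to 2995.1). On that sum p53ERTAM combo lay wholly above p53ERTAM vehicle (2210.5 to 2844). EV combo (2632.1 to 2921.3) stayed below EV vehicle by both measures. The map of all members by library shows the EV vehicle columns mostly above each gene's mean, with the stress effectors Trib3 and Ddit4 and the transporter Slc7a11 among the exceptions.

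**Figure D1:**
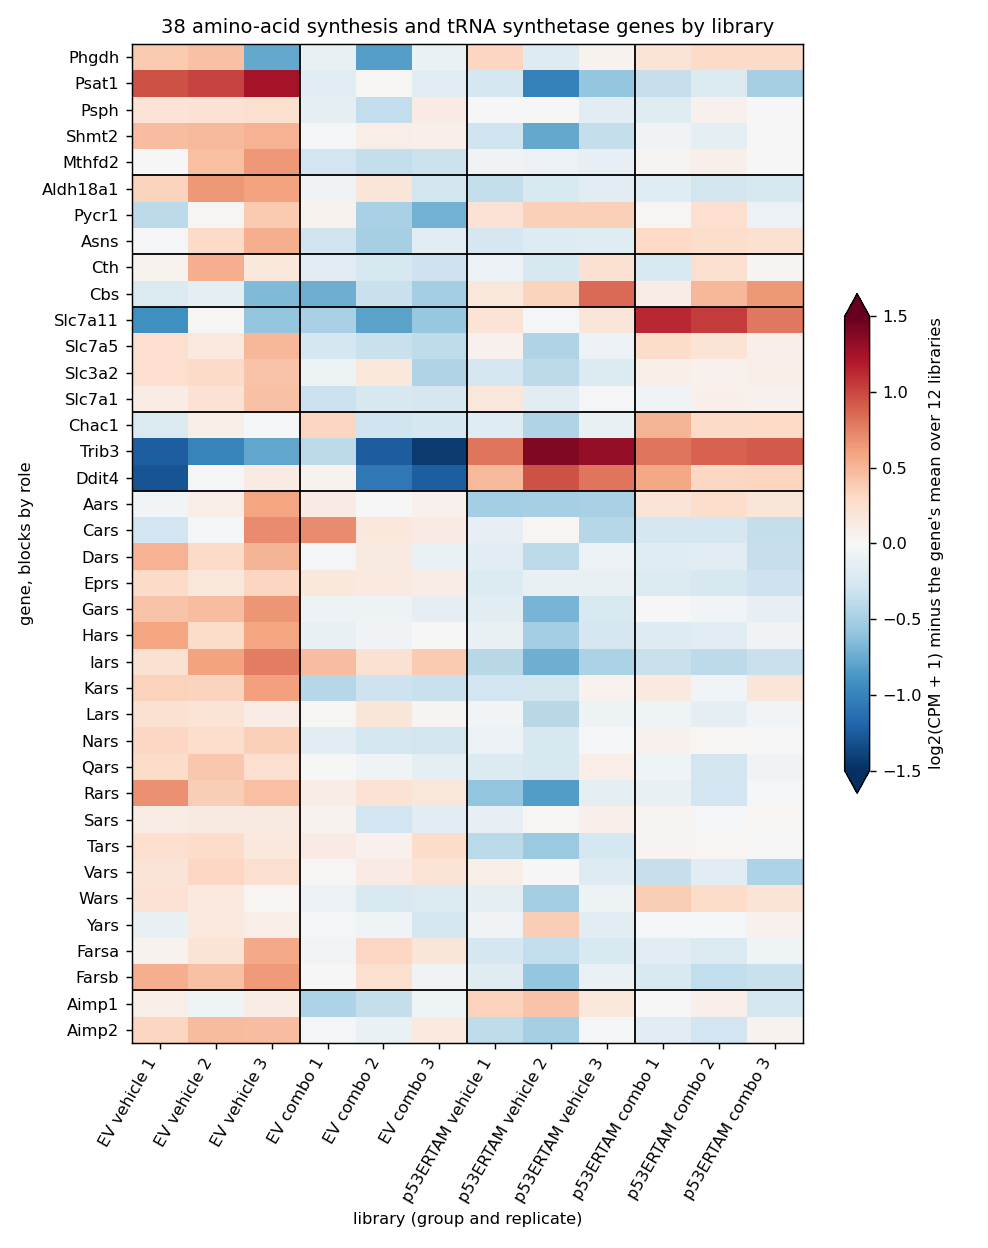
Level of each of 38 genes (vertical, in blocks by role) in each of 12 libraries (horizontal, by group), as log2(CPM + 1) minus the gene's mean over the 12 libraries, from below in blue to above in red. Psat1 is highest in the 3 EV vehicle libraries and Trib3 in the 6 p53ERTAM libraries.

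With combo in EV tumors 16 of 38 members fell and none rose. They include the serine-synthesis enzyme Psat1 (2.27-fold), the lysyl-tRNA synthetase Kars (1.74-fold), the folate enzyme Mthfd2 (1.65-fold) and the leucine transporter Slc7a5 (1.55-fold). The median over the 38 members was a log2 fold change of -0.40, and 36 of the 38 estimates were negative. Among protein-coding genes 39.2% were called, 14% higher and 25.2% lower, with a median of -0.13, and among all genes 39.9% were called, 18.8% higher and 21.1% lower. With counts scaled on protein-coding genes alone, 13 members fell, their median was -0.27, and 17.7% of genes were called lower. Slc3a2, Qars and Aimp2 were the calls lost there (-0.30, adjusted p = 0.0776 for Slc3a2, -0.25, adjusted p = 0.0700 for Qars and -0.28, adjusted p = 0.115 for Aimp2), and with the compared groups fitted alone Slc3a2 (-0.36, adjusted p = 0.0961) and Aimp2 (-0.34, adjusted p = 0.0514) were lost.

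With combo in p53ERTAM tumors 4 members rose and none fell. These were the cystine transporter Slc7a11 (1.88-fold) and the synthetases Aars (1.65-fold), Wars (1.44-fold) and Tars (1.35-fold). The median over the members was 0.13, with 26 estimates above 0 and 12 below. Far fewer genes moved in these tumors at all: 6.33% of protein-coding genes were called, 4.1% higher and 2.23% lower, with a median of 0.06, and of all genes 6.28%, 3.3% higher and 2.98% lower. In the same comparison 8 of 10 macrophage markers and 10 of 14 interferon-γ-linked genes rose. The summed macrophage level was 3325 to 4566 TPM in p53ERTAM combo against 1299 to 1719 in p53ERTAM vehicle, and the summed interferon-γ-linked level was 4522 to 5175 against 947 to 1727. Wars is known to be induced by interferon-γ, and the part of these cells and signals in the 4 calls was not tested.

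None of these 4 calls was kept in all 12 refits that leave out 1 library each. Slc7a11 kept its call in 7 of the 12, Aars in 8, Tars in 6 and Wars in 7. All 4 lost it without p53ERTAM vehicle 1, p53ERTAM vehicle 2, p53ERTAM combo 1 or p53ERTAM combo 3, where the highest adjusted p-values were 0.142 for Slc7a11, 0.0694 for Aars, 0.125 for Tars and 0.133 for Wars. Most calls over all genes were lost there too: 0.341 to 0.593% of all genes were called higher, against 3.3% with all libraries. Slc7a11, Tars and Wars also lost it without p53ERTAM combo 2, and Tars without EV combo 1. DESeq2 called 7 members higher and voom 10, beside 6.74% and 10.4% of all genes. Without the low-count filter Tars was lost (0.46, adjusted p = 0.0528).

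**Figure D2:**
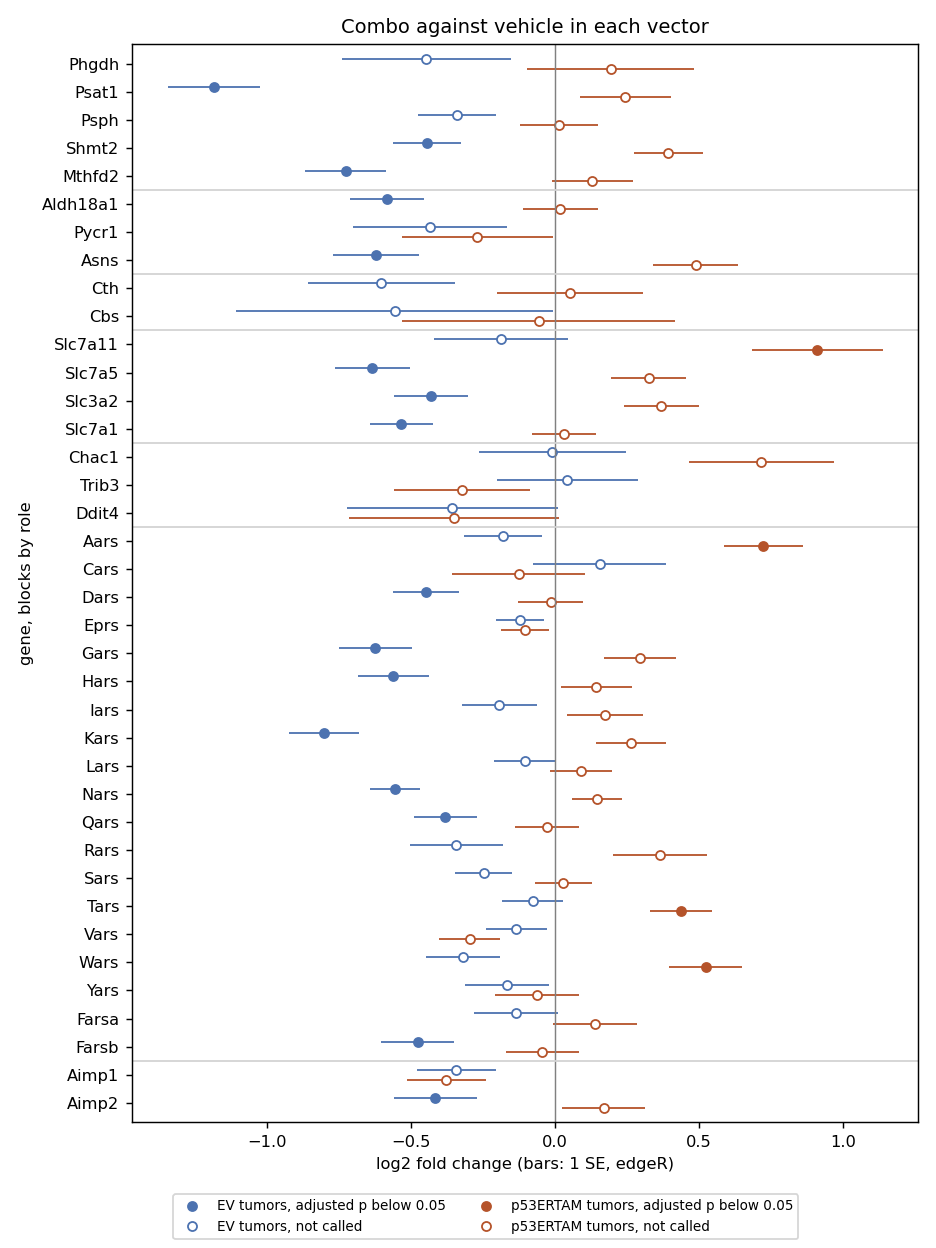
Combo against vehicle for 38 genes (vertical, in blocks by role) as log2 fold change (horizontal) with bars of 1 SE, in EV tumors (blue) and p53ERTAM tumors (orange); filled points passed an adjusted p of 0.05. In EV tumors 36 of 38 points lie below 0, and in p53ERTAM tumors 26 lie above it.

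Between the vectors under vehicle 23 members were lower in p53ERTAM tumors and 4 were higher. The lower ones were led by Psat1 (3.19-fold), the isoleucyl-tRNA synthetase Iars (2.13-fold) and the arginyl-tRNA synthetase Rars (2.03-fold). The higher ones were the pseudokinase Trib3 (4.69-fold), the transsulfuration enzyme Cbs (2.84-fold), the mTORC1 inhibitor Ddit4 (2.06-fold) and Slc7a11 (1.54-fold). The median over the members was -0.42. Of protein-coding genes 40.2% were called, 15.7% higher and 24.5% lower, with a median of -0.07, and of all genes 37.8%, 17.9% higher and 19.8% lower. This comparison shares the EV vehicle libraries with that of combo in EV tumors, so a high value in those libraries enters both. Epithelial markers moved the same way: 8 of 10 were lower in p53ERTAM than in EV under vehicle, and 6 of 10 fell with combo in EV tumors. Fibroblast and endothelial markers moved the other way: 6 of 10 and 6 of 8 were higher in p53ERTAM under vehicle, and 6 of 10 and 4 of 8 rose with combo in EV tumors. The 8 endothelial markers summed to 27.5 to 51.0 TPM in EV vehicle, against 58.2 to 112 TPM for EV combo and 90.6 to 144 TPM for p53ERTAM vehicle. Basal and mesenchymal markers were mixed. Of these 8, Krt5, Krt14, Krt17 and Trp63 were lower in p53ERTAM under vehicle and Vim, Zeb1 and Twist1 were higher. With combo in EV tumors Acta2 and Zeb1 rose and none of the 8 fell, so the basal keratins did not follow the epithelial markers there. With the compared groups fitted alone Mthfd2, Asns, Cbs, Slc7a11, Slc7a5, Lars and Wars lost the call under vehicle, with adjusted p from 0.0617 to 0.124.

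Between the vectors under combo 11 members were higher in p53ERTAM tumors and 5 were lower. The higher ones were Mthfd2, the asparagine synthetase Asns, Cbs, the transporters Slc7a11, Slc7a5 and Slc7a1, Trib3, Ddit4, and the synthetases Kars, Nars and Wars. The lower ones were all synthetases: Cars, Eprs, Iars, Vars and Farsb. The median was 0.13, the same as the 0.13 over protein-coding genes, of which 46.1% were called, 26.6% higher and 19.5% lower; of all genes 44.1% were called, 22.1% higher and 22% lower. The share of members called, 42.1%, was thus near that of all genes. With counts scaled on protein-coding genes alone the split was 8 higher and 9 lower, beside 21.9% and 24.2% of genes. Mthfd2, Slc7a1 and Nars lost the call there (0.26, adjusted p = 0.146 for Mthfd2, 0.19, adjusted p = 0.158 for Slc7a1 and 0.17, adjusted p = 0.0963 for Nars). In this comparison 8 of 10 macrophage markers, 5 of 8 tested T and NK cell markers, 5 of 8 endothelial markers and 13 of 14 interferon-γ-linked genes were higher in p53ERTAM tumors, and their part in the result was not tested.

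The combo effect differed between the vectors for 18 members, and in all 18 it was more positive in p53ERTAM tumors. The largest such differences were those of Psat1 (log2 1.43, 95% interval 0.91 to 1.95), Asns (1.11, 0.63 to 1.59), Slc7a11 (1.10, 0.35 to 1.85) and Kars (1.06, 0.67 to 1.46). The median over the 38 members was 0.57. Of protein-coding genes 34.8% were called in this interaction, 23.1% higher and 11.7% lower, with a median of 0.23, and of all genes 36%, 18.8% higher and 17.2% lower. With counts scaled on protein-coding genes alone 13 members were called, all higher, against 14.1% of genes, and Aldh18a1, Slc7a1, Rars, Tars and Aimp2 lost the call. Of the 10 epithelial markers 6 were called higher in the interaction, and of the 10 fibroblast markers 5 were called lower. Also higher were 8 of 10 macrophage markers (median 1.47), 4 of 8 tested T and NK cell markers (median 2.76) and 13 of 14 interferon-γ-linked genes (median 1.91). Within EV vehicle the summed T and NK cell markers spread from 5.83 to 54.3 TPM, and the summed B and plasma cell markers from 2.29 to 263 TPM. Cd3e and Jchain were at 11.8 and 119 CPM in EV vehicle 2, against 2.57 and 2.27 in EV vehicle 1 and 1.56 and 1.25 in EV vehicle 3. The part of any of these markers, or of that library's lymphocyte RNA, in the 18 calls was not tested. By pattern, 12 of the 18 had fallen with combo in EV tumors and stood lower in p53ERTAM than in EV under vehicle, a pair of comparisons that share EV vehicle.

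**Figure D3:**
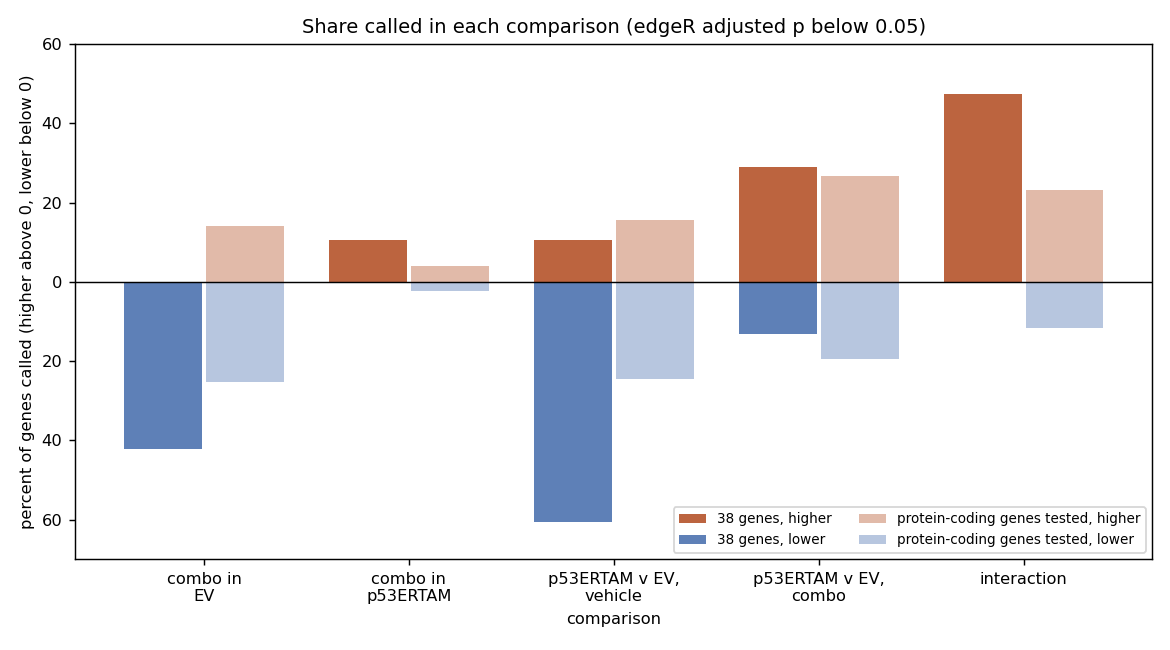
Percent of genes called higher (above 0) and lower (below 0) in each of 5 comparisons, for the 38 genes (dark bars) and for all protein-coding genes tested (light bars). The largest share is that of the 23 genes lower in p53ERTAM than in EV under vehicle; in p53ERTAM against EV under combo the dark and light bars are close.

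The first role is serine synthesis and the one-carbon units drawn from it, where Phgdh, Psat1 and Psph make serine from a glycolytic intermediate. Psat1, phosphoserine aminotransferase (chr19:15904678-15947337, GRCm38), was at 255, 266 and 311 CPM in EV vehicle, 116, 132 and 118 in EV combo, 109, 64.5 and 87.6 in p53ERTAM vehicle and 103, 114 and 92.5 in p53ERTAM combo. The 3 EV vehicle libraries lay far above all 9 others, among which EV combo lay just above the 2 p53ERTAM groups. Its level fell with combo in EV tumors (log2 fold change -1.18, SE 0.160, adjusted p = 0.000247), was lower in p53ERTAM than in EV under vehicle (log2 fold change -1.67, SE 0.162, adjusted p = 2.86e-05), and gave -0.24 (adjusted p = 0.225) between the vectors under combo. In p53ERTAM tumors combo gave 0.24 (95% interval -0.12 to 0.61, adjusted p = 0.367). These calls of Psat1 held in all 12 refits that leave out 1 library.

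Shmt2, the mitochondrial enzyme that turns serine into glycine and a one-carbon unit, was at 92.8, 94.5 and 96.2 CPM in EV vehicle, 66.3, 71.8 and 70.5 in EV combo, 54.4, 38.9 and 52.2 in p53ERTAM vehicle and 64.4, 60.4 and 66.6 in p53ERTAM combo. EV vehicle lay above every other library and p53ERTAM vehicle below every other library. Shmt2 fell with combo in EV tumors (-0.44, adjusted p = 0.00975) and was lower in p53ERTAM under vehicle (-0.96, adjusted p = 0.000112). Its interaction was 0.84 (adjusted p = 0.00249), with a combo effect in p53ERTAM tumors of 0.39 that did not pass (adjusted p = 0.0641).

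Mthfd2, the mitochondrial folate enzyme next in that path, was at 38.8, 53.3 and 61.2 CPM in EV vehicle, 31.7, 30.1 and 30.9 in EV combo, 37.4, 36.6 and 35.4 in p53ERTAM vehicle and 40.1, 40.9 and 38.8 in p53ERTAM combo. EV combo lay below every other library, and EV vehicle lay above p53ERTAM vehicle, but its first library was level with the lowest of p53ERTAM combo. It fell with combo in EV tumors (-0.73, adjusted p = 0.00169) and had an interaction of 0.86 (adjusted p = 0.00560). The difference between the vectors under vehicle (-0.49, adjusted p = 0.0155) was not called without EV vehicle 2 (-0.43, adjusted p = 0.0619) or without EV vehicle 3 (-0.32, adjusted p = 0.0961), and that under combo (0.37, adjusted p = 0.0472) kept its call in 3 of 12 refits, with adjusted p up to 0.121.

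Phgdh and Psph, the first and last enzymes of serine synthesis, passed in no comparison by edgeR with all libraries. Phgdh was at 25.8, 26.7 and 10.99 CPM in EV vehicle, 17.9, 10.5 and 18.1 in EV combo, 24.5, 16.8 and 20.1 in p53ERTAM vehicle and 22.4, 23.99 and 23.97 in p53ERTAM combo. EV vehicle 3 and EV combo 2 were low within their groups, and the 4 groups overlapped except p53ERTAM combo, which lay above EV combo. Without EV vehicle 3 Phgdh was called lower with combo in EV tumors (-0.73, adjusted p = 0.0205), higher in p53ERTAM under combo (0.59, adjusted p = 0.0235) and higher in the interaction (0.92, adjusted p = 0.0256). Under combo it was also called by voom (0.62, adjusted p = 0.0311) and with the compared groups fitted alone (0.55, adjusted p = 0.0367). Psph was at 35.8 ± 0.468 CPM (SD, n = 3) under EV vehicle and 28.2 ± 4.996 under EV combo, a log2 fold change of -0.34 (adjusted p = 0.0619) that was called without EV combo 3 (-0.48, adjusted p = 0.0203).

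**Figure D4:**
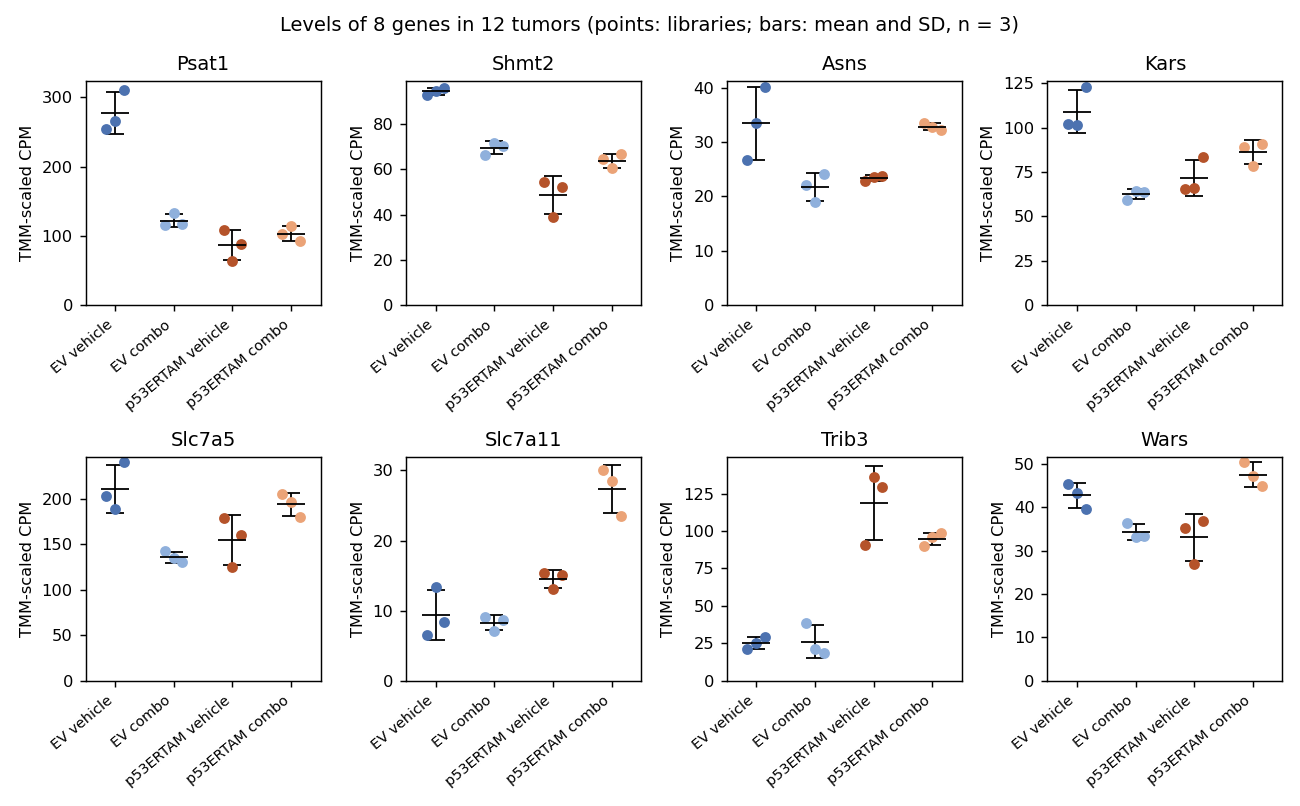
TMM-scaled CPM of 8 genes (1 panel each, vertical axes from 0) in the 4 groups; points are the 3 libraries of a group and bars the mean and SD. Psat1, Shmt2 and Kars are highest in EV vehicle, Slc7a11 in p53ERTAM combo, and Trib3 in both p53ERTAM groups.

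Of the 3 genes of proline and asparagine synthesis, 2 fell with combo in EV tumors. Aldh18a1, the first enzyme of proline synthesis from glutamate, was at 70.9, 88.6 and 85.5 CPM in EV vehicle, 54.1, 63.5 and 46.1 in EV combo, 43.5, 47.6 and 50.2 in p53ERTAM vehicle and 49.4, 46.3 and 47.5 in p53ERTAM combo. EV vehicle lay above the other groups. It fell with combo in EV tumors (-0.58, adjusted p = 0.00337) and was lower in p53ERTAM under vehicle (-0.79, adjusted p = 0.000547). Its interaction (0.60, adjusted p = 0.0206) was not called without EV vehicle 2 (0.52, adjusted p = 0.0644), p53ERTAM vehicle 1 (0.53, adjusted p = 0.0618), p53ERTAM combo 1 (0.56, adjusted p = 0.0611) or p53ERTAM combo 3 (0.59, adjusted p = 0.0527).

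Asns, which makes asparagine from aspartate, was at 26.6, 33.5 and 40.1 CPM in EV vehicle, 22.02, 18.9 and 24.2 in EV combo, 22.8, 23.6 and 23.8 in p53ERTAM vehicle and 33.6, 32.7 and 32.2 in p53ERTAM combo. The p53ERTAM combo libraries lay above those of p53ERTAM vehicle and EV combo and within the range of EV vehicle, which spread widely. Asns fell with combo in EV tumors (log2 fold change -0.62, SE 0.149, adjusted p = 0.00544). In p53ERTAM tumors combo gave 0.49 (95% interval 0.15 to 0.83), which did not pass (adjusted p = 0.0651). The vectors differed in both directions, lower in p53ERTAM under vehicle (-0.51, adjusted p = 0.0154) and higher under combo (0.60, adjusted p = 0.00596), and the interaction was 1.11 (adjusted p = 0.00185). The vehicle difference was not called without EV vehicle 3 (-0.34, adjusted p = 0.0903) or p53ERTAM vehicle 1 (-0.48, adjusted p = 0.0577).

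Pycr1, the last enzyme of proline synthesis in mitochondria, had means of 8.42 ± 2.51, 6.23 ± 2.03, 10.4 ± 0.631 and 8.62 ± 1.18 CPM in the order EV vehicle, EV combo, p53ERTAM vehicle and p53ERTAM combo (SD, n = 3). It passed in no comparison by edgeR, and each pair of groups tested overlapped. Without EV combo 1 it was called higher in p53ERTAM under combo (0.76, adjusted p = 0.0467).

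All 4 amino-acid transporters showed a combo effect that differed between the vectors. Slc7a5, the light chain of the LAT1 exchanger for leucine and other large neutral amino acids, was at 203, 189 and 241 CPM in EV vehicle, 142, 135 and 131 in EV combo, 179, 125 and 160.4 in p53ERTAM vehicle and 206, 196 and 180.3 in p53ERTAM combo. EV vehicle and p53ERTAM combo overlapped each other and lay above EV combo and p53ERTAM vehicle, which also overlapped each other. Slc7a5 fell with combo in EV tumors (log2 fold change -0.63, SE 0.131, adjusted p = 0.00236), was higher in p53ERTAM than in EV under combo (0.51, adjusted p = 0.00667), and had an interaction of 0.96 (adjusted p = 0.00203). Its lower level in p53ERTAM under vehicle (-0.45, adjusted p = 0.0165) was not called without EV vehicle 3 (-0.32, adjusted p = 0.0868) or p53ERTAM vehicle 2 (-0.31, adjusted p = 0.0604).

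Slc3a2, the heavy chain shared by LAT1 and the cystine exchanger, was at 243, 249 and 276 CPM in EV vehicle, 194, 228 and 149 in EV combo, 171, 155 and 178 in p53ERTAM vehicle and 217, 215 and 220.1 in p53ERTAM combo. EV vehicle was highest, and EV combo spread over the range of both p53ERTAM groups. It was lower in p53ERTAM under vehicle (-0.61, adjusted p = 0.00290), and its interaction was 0.80 (adjusted p = 0.00514). Its fall with combo in EV tumors (-0.43, adjusted p = 0.0178) was not called without EV vehicle 3 (-0.34, adjusted p = 0.0789) or EV combo 3 (-0.28, adjusted p = 0.0677).

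Slc7a11, the cystine-importing light chain of the exchanger, a gene that ATF4 activates and p53 is known to repress, was at 6.51, 13.4 and 8.39 CPM in EV vehicle, 9.14, 7.15 and 8.603 in EV combo, 15.3, 13.1 and 15.2 in p53ERTAM vehicle and 30.01, 28.4 and 23.5 in p53ERTAM combo. All 3 p53ERTAM combo libraries lay above all 9 others. Slc7a11 rose with combo in p53ERTAM tumors (log2 fold change 0.91, SE 0.226, adjusted p = 0.0339), was at -0.19 with combo in EV tumors (adjusted p = 0.552), and was higher in p53ERTAM than in EV under combo (log2 fold change 1.72, SE 0.234, adjusted p = 0.000102). Its higher level in p53ERTAM under vehicle (0.62, adjusted p = 0.0479) kept its call in only 1 of 12 refits, with adjusted p up to 0.150, and there EV vehicle 2 lay within the p53ERTAM range. The interaction (1.10, adjusted p = 0.0189) was not called without EV vehicle 2 (0.73, adjusted p = 0.0523) or p53ERTAM combo 1 (1.01, adjusted p = 0.0559).

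Slc7a1, the importer of arginine and lysine, was at 244, 263 and 307 CPM in EV vehicle, 182, 191 and 191 in EV combo, 256, 202 and 222 in p53ERTAM vehicle and 218, 238 and 238 in p53ERTAM combo. EV combo was lowest without overlap. It fell with combo in EV tumors (-0.53, adjusted p = 0.00242) and had an interaction of 0.56 (adjusted p = 0.0137), which missed the threshold when counts were scaled on protein-coding genes alone (0.38, adjusted p = 0.0707). Its higher level in p53ERTAM under combo (0.30, adjusted p = 0.0405) kept its call in 5 of 12 refits, with adjusted p up to 0.123.

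The 2 transsulfuration genes, which lead from homocysteine to cysteine, were weakly expressed. Cbs, cystathionine beta-synthase, was at 0.789, 0.877 and 0.313 CPM in EV vehicle, 0.254, 0.650 and 0.456 in EV combo, 1.34, 1.61 and 2.74 in p53ERTAM vehicle and 1.25, 1.95 and 2.28 in p53ERTAM combo, with as few as 4 counts in a library. All 6 p53ERTAM libraries lay above all 6 EV libraries. Cbs was higher in p53ERTAM under vehicle (log2 fold change 1.51, SE 0.503, adjusted p = 0.0309) and under combo (log2 fold change 2.01, SE 0.531, adjusted p = 0.00833). The vehicle difference was not called without EV vehicle 3 (1.20, adjusted p = 0.0859), p53ERTAM vehicle 2 (1.61, adjusted p = 0.0501) or p53ERTAM vehicle 3 (1.14, adjusted p = 0.119), nor by voom (1.14, adjusted p = 0.126), nor without the low-count filter (adjusted p = 0.0510). Cth, cystathionine gamma-lyase, was at 6.35 ± 1.36 CPM under EV vehicle and 4.19 ± 0.256 under EV combo (SD, n = 3) and passed in no comparison by edgeR (-0.60, adjusted p = 0.0753 for combo in EV tumors).

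Of the 3 stress effectors, 2 separated the vectors and none was called with combo in either vector by edgeR. Trib3, a pseudokinase that ATF4 and CHOP induce and that feeds back on ATF4, was at 21.2, 25.1 and 29.6 CPM in EV vehicle, 38.8, 21.02 and 18.4 in EV combo, 90.7, 136 and 129 in p53ERTAM vehicle and 90.3, 95.8 and 98.5 in p53ERTAM combo. The lowest p53ERTAM library, at 90.3 CPM, was above the highest EV library, at 38.8 CPM. Trib3 was higher in p53ERTAM under vehicle (log2 fold change 2.23, SE 0.249, adjusted p = 7.80e-05) and under combo (log2 fold change 1.86, SE 0.248, adjusted p = 0.000108), and both calls held in all 12 refits. Combo gave 0.04 in EV tumors (95% interval -0.52 to 0.61, adjusted p = 0.905) and -0.32 in p53ERTAM tumors (95% interval -0.87 to 0.22, adjusted p = 0.432).

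Ddit4, also called REDD1, an inhibitor of mTORC1 known as a target of both ATF4 and p53, was at 72.5, 176 and 195 CPM in EV vehicle, 186, 84.5 and 75.5 in EV combo, 252, 348 and 313 in p53ERTAM vehicle and 269, 223 and 225 in p53ERTAM combo. All p53ERTAM libraries lay above all EV libraries, and within each EV group 1 library stood apart from the other 2. Ddit4 was higher in p53ERTAM under vehicle (1.04, adjusted p = 0.0427) and under combo (1.05, adjusted p = 0.0369). Each of these calls was kept in 5 of 12 refits, with adjusted p up to 0.134 under vehicle and 0.133 under combo, and neither held without the low-count filter (1.03, adjusted p = 0.163 and 1.05, adjusted p = 0.140). Chac1, which degrades glutathione, had means of 5.197 ± 0.659, 5.17 ± 1.57, 4.39 ± 0.641 and 7.24 ± 0.742 CPM in the order EV vehicle, EV combo, p53ERTAM vehicle and p53ERTAM combo (SD, n = 3). By edgeR it passed in no comparison, and its largest estimate was 0.73 for the interaction (adjusted p = 0.129). With combo in p53ERTAM tumors (0.72, adjusted p = 0.103 by edgeR) Chac1 was called higher by DESeq2 (0.72, adjusted p = 0.0436) and voom (0.69, adjusted p = 0.0368), and between the vectors under combo by voom (0.51, adjusted p = 0.0483). Without EV combo 1, edgeR called Chac1 under combo (0.77, adjusted p = 0.0388) and in the interaction (1.01, adjusted p = 0.0477).

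**Figure D5:**
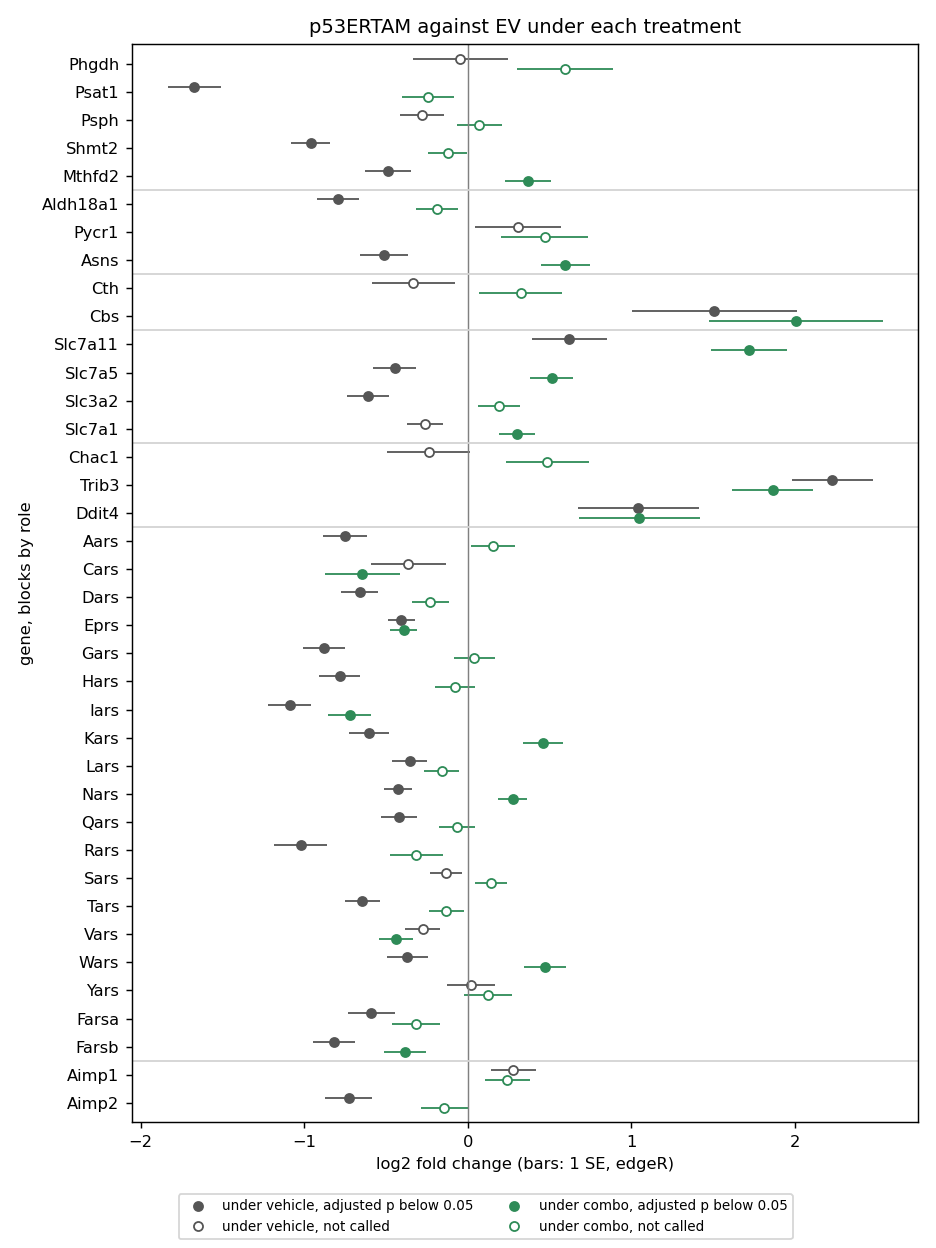
p53ERTAM against EV for 38 genes (vertical, in blocks by role) as log2 fold change (horizontal) with bars of 1 SE, under vehicle (grey) and under combo (green); filled points passed an adjusted p of 0.05. Cbs, Trib3 and Ddit4 lie above 0 under both treatments, while most synthetases lie below 0 under vehicle and nearer to it under combo.

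The 19 synthetase genes were the largest role. With combo in EV tumors 7 fell and none rose (median -0.25), in p53ERTAM tumors 3 rose and none fell (median 0.14), under vehicle 15 were lower in p53ERTAM and none higher (median -0.59), under combo 3 were higher and 5 lower (median -0.13), and in the interaction 8 were called, all higher (median 0.43). Their shares called, in the same order, were 36.8%, 15.8%, 78.9%, 42.1% and 42.1%, beside 39.9%, 6.28%, 37.8%, 44.1% and 36% of all genes, so those for combo in EV tumors and for the vectors under combo lay near the share of all genes. Per length, in EV vehicle they ranged from 18.4 TPM for Yars and 26.1 TPM for Farsa to 222 TPM for Vars and 235 TPM for Nars. The 7 that fell with combo in EV tumors were Dars, Gars, Hars, Kars, Nars, Qars and Farsb.

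Kars, which charges tRNA with lysine, was at 102, 102 and 123 CPM in EV vehicle, 59.3, 64.6 and 63.8 in EV combo, 65.6, 65.9 and 83.5 in p53ERTAM vehicle and 88.9, 78.3 and 91.1 in p53ERTAM combo. EV vehicle lay above all other libraries and EV combo below all other libraries. It fell with combo in EV tumors (log2 fold change -0.80, SE 0.121, adjusted p = 0.000437), was lower in p53ERTAM under vehicle (-0.60, adjusted p = 0.00200) and higher in p53ERTAM under combo (0.46, adjusted p = 0.00797), and its interaction was 1.06 (adjusted p = 0.000869). Every one of these calls held in all 12 refits.

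Nars, the asparaginyl-tRNA synthetase, was at 198, 191 and 204 CPM in EV vehicle, 141, 132 and 130.5 in EV combo, 149, 135 and 157 in p53ERTAM vehicle and 165, 162 and 159.8 in p53ERTAM combo. The groups were tight, with EV vehicle highest and the 3 p53ERTAM combo libraries between it and the rest. Nars fell with combo in EV tumors (-0.55, adjusted p = 0.000518), was lower in p53ERTAM under vehicle (-0.43, adjusted p = 0.00216) and had an interaction of 0.70 (adjusted p = 0.00125). The difference between the vectors under combo (0.27, adjusted p = 0.0208) kept its call in 7 of 12 refits, with adjusted p up to 0.0694.

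Gars, the glycyl-tRNA synthetase, was at 172, 177 and 202 CPM in EV vehicle, 121, 121 and 116 in EV combo, 113, 78.1 and 109 in p53ERTAM vehicle and 127, 124 and 117 in p53ERTAM combo. EV vehicle stood alone at the top, and p53ERTAM vehicle 2 was the lowest library. Gars fell with combo in EV tumors (-0.62, adjusted p = 0.00210), was lower in p53ERTAM under vehicle (-0.88, adjusted p = 0.000259) and had an interaction of 0.92 (adjusted p = 0.00211). Hars, the histidyl-tRNA synthetase, was at 93.97, 74.9 and 93.9 CPM in EV vehicle, 57.1, 59.5 and 61.5 in EV combo, 57.4, 43.3 and 51.8 in p53ERTAM vehicle and 53.9, 55.03 and 59.7 in p53ERTAM combo. It was called in the same 3 comparisons, with -0.56 for combo in EV tumors (adjusted p = 0.00337), -0.78 between the vectors under vehicle (adjusted p = 0.000470) and an interaction of 0.70 (adjusted p = 0.00789). Of its exon length, 9.81% is shared with Hars2 on the opposite strand.

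Dars, Qars and Farsb fell with combo in EV tumors and were lower in p53ERTAM under vehicle, but had no called interaction. Dars, for aspartate, was at 115, 98.1 and 115 CPM in EV vehicle, 78.2, 88.1 and 74.8 in EV combo, 71.1, 61.1 and 75.5 in p53ERTAM vehicle and 70.8, 71.9 and 63.00 in p53ERTAM combo. EV vehicle lay above every other library. It had -0.45 (adjusted p = 0.00765) and -0.66 (adjusted p = 0.000806) in these comparisons. Farsb, the beta chain of the phenylalanine enzyme, was at 145, 135 and 155 CPM in EV vehicle, 99.3, 118 and 95.7 in EV combo, 87.3, 66.4 and 92.6 in p53ERTAM vehicle and 84.4, 76.5 and 78.3 in p53ERTAM combo. Its EV vehicle libraries were highest, and its p53ERTAM combo libraries lay below EV combo. It had -0.48 (adjusted p = 0.00994) and -0.82 (adjusted p = 0.000443). Farsb was also lower in p53ERTAM under combo (-0.39, adjusted p = 0.0260), a call lost without EV combo 2 (-0.29, adjusted p = 0.117), p53ERTAM combo 2 (-0.36, adjusted p = 0.0826) or p53ERTAM combo 3 (-0.37, adjusted p = 0.0792). Qars, for glutamine, was at 133, 146 and 131 CPM in EV vehicle, 109, 105 and 100.2 in EV combo, 95.03, 93.2 and 118 in p53ERTAM vehicle and 105, 90.3 and 106 in p53ERTAM combo. EV vehicle lay above every other library, and the other groups overlapped. It had -0.38 (adjusted p = 0.0153) and -0.42 (adjusted p = 0.00997). Its fall was lost without EV vehicle 2 (-0.30, adjusted p = 0.0840) or EV combo 3 (-0.35, adjusted p = 0.0553), and its vehicle difference without EV vehicle 2 (-0.35, adjusted p = 0.0538) or p53ERTAM vehicle 1 (-0.35, adjusted p = 0.0524).

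Aars, Tars and Wars were the synthetases that rose with combo in p53ERTAM tumors. Aars, for alanine, was at 73.4, 81.03 and 114 CPM in EV vehicle, 82.2, 75.7 and 79.1 in EV combo, 52.7, 53.3 and 53.6 in p53ERTAM vehicle and 86.7, 91.2 and 85.6 in p53ERTAM combo. The 3 p53ERTAM vehicle libraries were the lowest of the 12 and nearly equal, and p53ERTAM combo lay within the range of EV vehicle. Aars rose with combo in p53ERTAM tumors (log2 fold change 0.72, SE 0.137, adjusted p = 0.0144), had -0.18 in EV tumors (adjusted p = 0.311) and an interaction of 0.90 (adjusted p = 0.00354). It was lower in p53ERTAM under vehicle (-0.75, adjusted p = 0.00113). Exosc6 lies on the same strand and shares 14.3% of its exon length.

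Tars, for threonine, was at 53.5, 54.6 and 50.3 CPM in EV vehicle, 48.9, 46.96 and 54.4 in EV combo, 33.7, 30.3 and 37.3 in p53ERTAM vehicle and 46.2, 45.98 and 44.99 in p53ERTAM combo. p53ERTAM vehicle was again lowest without overlap. Tars rose with combo in p53ERTAM tumors (0.44, adjusted p = 0.0326), was lower in p53ERTAM under vehicle (-0.64, adjusted p = 0.000645), and its interaction (0.51, adjusted p = 0.0186) was lost without EV vehicle 2 (0.46, adjusted p = 0.0546) or p53ERTAM combo 1 (0.49, adjusted p = 0.0527). Wars, for tryptophan, was at 45.4, 43.2 and 39.6 CPM in EV vehicle, 36.3, 33.1 and 33.3 in EV combo, 35.3, 26.9 and 36.9 in p53ERTAM vehicle and 50.4, 47.3 and 44.8 in p53ERTAM combo. Its p53ERTAM combo libraries lay above those of both EV combo and p53ERTAM vehicle and overlapped the top of EV vehicle. Wars rose with combo in p53ERTAM tumors (0.52, adjusted p = 0.0322), was higher in p53ERTAM under combo (0.47, adjusted p = 0.00924) and had an interaction of 0.84 (adjusted p = 0.00366). Its lower level in p53ERTAM under vehicle (-0.37, adjusted p = 0.0358) kept its call in 5 of 12 refits, with adjusted p up to 0.122.

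Rars and Iars were the synthetases with the largest differences between the vectors under vehicle. Rars, for arginine, was at 61.5, 49.2 and 52.3 CPM in EV vehicle, 41.00, 44.5 and 43.1 in EV combo, 24.98, 20.8 and 34.4 in p53ERTAM vehicle and 35.1, 31.00 and 37.2 in p53ERTAM combo. All p53ERTAM vehicle libraries lay below all EV libraries. It was lower in p53ERTAM under vehicle (log2 fold change -1.02, SE 0.164, adjusted p = 0.000507), and its interaction (0.71, adjusted p = 0.0287) kept its call in 5 of 12 refits, with adjusted p up to 0.0784. Iars, for isoleucine, was at 157, 205 and 228 CPM in EV vehicle, 184, 156 and 175 in EV combo, 100.3, 80.5 and 96.4 in p53ERTAM vehicle and 106, 102 and 106 in p53ERTAM combo. All 6 p53ERTAM libraries lay below all 6 EV libraries. It was lower in p53ERTAM under vehicle (log2 fold change -1.09, SE 0.133, adjusted p = 0.000101) and under combo (log2 fold change -0.72, SE 0.132, adjusted p = 0.000803), with an interaction of 0.37 that did not pass (adjusted p = 0.138).

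Eprs, which carries the glutamyl and prolyl activities in 1 protein, was, like Iars and Farsb, lower in p53ERTAM under both treatments (-0.41, adjusted p = 0.00216 under vehicle and -0.39, adjusted p = 0.00215 under combo). It was at 280.1, 259 and 287 CPM in EV vehicle, 258, 255 and 248 in EV combo, 199, 212 and 212 in p53ERTAM vehicle and 199.7, 195 and 186 in p53ERTAM combo, and no p53ERTAM library reached the lowest EV library. Combo gave -0.12 in EV tumors (95% interval -0.31 to 0.07) and -0.10 in p53ERTAM tumors (95% interval -0.29 to 0.09). Vars, for valine, was lower in p53ERTAM under combo (-0.44, adjusted p = 0.00487) and had -0.28 under vehicle (adjusted p = 0.0541). Cars, for cysteine, was at 180.0 ± 43.7 CPM in EV combo and 115 ± 4.88 CPM in p53ERTAM combo (SD, n = 3). Its lower level in p53ERTAM combo (-0.64, adjusted p = 0.0378) kept its call in 7 of 12 refits, with adjusted p up to 0.168 without EV combo 1, and was lost without the low-count filter (-0.64, adjusted p = 0.130).

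Lars and Farsa were called in 1 comparison each, as lower in p53ERTAM under vehicle. Lars, for leucine, gave -0.35 (adjusted p = 0.0195), and lost the call without EV vehicle 1 (-0.32, adjusted p = 0.0607), EV vehicle 2 (-0.32, adjusted p = 0.0706) or p53ERTAM vehicle 2 (-0.24, adjusted p = 0.0614). Farsa, the alpha chain of the phenylalanine enzyme, gave -0.59 (adjusted p = 0.00693) and kept it in all 12 refits. Sars, for serine, and Yars, for tyrosine, passed in no comparison by edgeR. Sars came closest, at -0.25 with combo in EV tumors (adjusted p = 0.0621), and was called there without EV combo 1 (-0.35, adjusted p = 0.0224), while Yars stayed between -0.17 and 0.12.

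Of the 2 scaffold proteins of the multi-synthetase complex, edgeR called Aimp2 in 3 comparisons and Aimp1 in none. Aimp2 was at 42.5, 47.2 and 47.1 CPM in EV vehicle, 33.5, 31.4 and 37.7 in EV combo, 25.8, 23.7 and 33.05 in p53ERTAM vehicle and 30.3, 27.5 and 35.1 in p53ERTAM combo. EV vehicle lay above every other library. Aimp2 was lower in p53ERTAM under vehicle (-0.73, adjusted p = 0.00187). Its fall with combo in EV tumors (-0.41, adjusted p = 0.0340) kept its call in 5 of 12 refits, with adjusted p up to 0.112, and its interaction (0.58, adjusted p = 0.0382) in 4, with adjusted p up to 0.125. Of its exon length, 29.4% is shared with Eif2ak1 on the opposite strand, as are 10.4% of Psph with Cct6a and 9.47% of Farsb with Sgpp2, and the strand setting of the counting is not given in the sources used here. Aimp1 was at 40.7 ± 2.74 CPM in EV vehicle, 32.1 ± 4.81 in EV combo, 49.3 ± 4.63 in p53ERTAM vehicle and 37.95 ± 4.75 in p53ERTAM combo (SD, n = 3), with a combo effect of -0.34 in EV tumors and -0.38 in p53ERTAM tumors (adjusted p = 0.0635 and 0.111). Aimp1 was called lower in p53ERTAM tumors by voom (-0.38, adjusted p = 0.0320), and in EV tumors by edgeR without EV combo 3 (-0.47, adjusted p = 0.0265).

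Atf4 itself, whose activity is set mainly by translation, was at 176, 166 and 207 CPM in EV vehicle, 125, 119 and 121 in EV combo, 210.3, 246 and 237 in p53ERTAM vehicle and 215, 221 and 212 in p53ERTAM combo. EV combo lay below every other library, and all p53ERTAM libraries lay above all EV libraries. Atf4 RNA fell with combo in EV tumors (log2 fold change -0.59, SE 0.0997, adjusted p = 0.000744), was higher in p53ERTAM under vehicle (0.34, adjusted p = 0.0169) and under combo (log2 fold change 0.83, SE 0.0999, adjusted p = 4.19e-05), and had an interaction of 0.50 (adjusted p = 0.0154). Under vehicle Atf4 was higher in p53ERTAM, where 23 members were lower. Ddit3, which encodes the stress factor CHOP, passed in no comparison by edgeR and gave its smallest adjusted p under vehicle (0.77, adjusted p = 0.0961).

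Genes of the integrated stress response, Atf4 included, were called between the vectors under vehicle about as often as all genes. There 15.8% were higher and 15.8% lower, beside 17.9% and 19.8% of all genes. Under combo 52.6% were higher in p53ERTAM, beside 22.1% of all genes. Of 20 listed, 19 were tested: with combo in EV tumors 1 rose and 7 fell (median -0.37), in p53ERTAM tumors 1 rose and none fell (median 0.15), under vehicle 3 were higher and 3 lower in p53ERTAM (median 0.01), under combo 10 were higher and 1 lower (median 0.55), and in the interaction 7 were higher and 1 lower (median 0.54). The shares called, in this order, were 42.1%, 5.26%, 31.6%, 57.9% and 42.1%, beside 39.9%, 6.28%, 37.8%, 44.1% and 36% of all genes. Besides Atf4, Cebpb and Cebpg, partners of ATF4, fell with combo in EV tumors (-0.77, adjusted p = 0.000856 and -0.90, adjusted p = 0.00110). Under combo Cebpb (0.72, adjusted p = 0.000852) and Sesn2, an inhibitor of mTORC1 (0.92, adjusted p = 0.000530), were higher in p53ERTAM. Eif2ak2, the RNA-sensing kinase PKR, rose with combo in p53ERTAM tumors (1.07, adjusted p = 0.00556).

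Of 18 further genes of amino-acid and glutathione synthesis, 8 fell and 1 rose with combo in EV tumors, 2 rose and 1 fell in p53ERTAM tumors, 8 were lower and 2 higher in p53ERTAM under vehicle, 3 were higher and 3 lower under combo, and 8 were higher and 1 lower in the interaction. The shares called, in this order, were 50%, 16.7%, 55.6%, 33.3% and 50%, beside 39.9%, 6.28%, 37.8%, 44.1% and 36% of all genes. The aspartate transaminase Got1 (-1.22, adjusted p = 0.000300) and the glutathione-synthesis subunit Gclm (-0.81, adjusted p = 0.000518) were among those that fell with combo in EV tumors, and the lipid-peroxide reductase Gpx4 had an interaction of 1.70, adjusted p = 0.000706. Of 14 further one-carbon genes tested, 6 fell and 1 rose with combo in EV tumors and 9 were lower and 1 higher in p53ERTAM under vehicle. These are 50% and 71.4% called, beside 39.9% and 37.8% of all genes. Mthfd1 gave -0.89 (adjusted p = 0.000212) and thymidylate synthase, Tyms, -1.11 (adjusted p = 0.000319) under vehicle.

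Of 11 further amino-acid transporters tested, 1, the glutamine importer Slc1a5, fell with combo in EV tumors (-0.60, adjusted p = 0.00122), beside 3 of the 4 member transporters. That is 9.09% of the 11, where 21.1% of all genes were called lower. Under combo 7 (63.6%) were higher in p53ERTAM and none lower, beside 22.1% and 22% of all genes. Slc38a1 was among the 7 (1.85, adjusted p = 0.000449). The difference between these lists was not tested.

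The mitochondrial tRNA synthetases are 17 genes whose products charge tRNAs inside mitochondria. Under vehicle 17.6% of them were lower in p53ERTAM, near the 19.8% of all genes, and under combo 35.3% were, beside 22%. With combo in EV tumors 2 rose and 1 fell (median 0.02), in p53ERTAM tumors 1, Lars2, fell (median -0.20), under vehicle 3 were lower and 1 higher in p53ERTAM (median -0.06), under combo 6 were lower (median -0.16), and in the interaction 4 were called, all lower (median -0.11). Their shares called, in this order, were 17.6%, 5.88%, 23.5%, 35.3% and 23.5%, beside 39.9%, 6.28%, 37.8%, 44.1% and 36% of all genes. Lars2 was at 169, 129.6 and 153 CPM in EV vehicle, 153, 186 and 241 in EV combo, 672, 1492 and 294 in p53ERTAM vehicle and 212, 184 and 155 in p53ERTAM combo. The p53ERTAM vehicle libraries were the highest and spread widely, and Lars2 was higher there than in EV vehicle (2.44, adjusted p = 0.00149). In the same order of these libraries Gm26917 took 0.654, 1.10 and 0.357% of counts and protein-coding genes 92.3, 86.7 and 93.95%. In EV combo Gm26917 took 10.7 to 11.1%, with Lars2 at 153 to 241 CPM. The part of library make-up in the Lars2 calls was not tested. Of 5 further cytosolic synthetases and partners, the threonyl-like Tarsl2 was lower in p53ERTAM under vehicle (-2.12, adjusted p = 3.66e-05) and under combo (-0.99, adjusted p = 0.00201).

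The 14 targets of XBP1, the factor made active by the IRE1α RNase that ORIN1001 blocks, were called mostly in 3 of the 5 comparisons. With combo in EV tumors 12 fell and none rose (median -0.56), as did Xbp1 itself (-1.10, adjusted p = 0.00278), and in p53ERTAM tumors their median was 0.18. Under vehicle 2 were higher and 3 lower in p53ERTAM (median -0.21). Under combo 11 were higher in p53ERTAM and none lower, and 9 were called higher in the interaction. The shares called in the 5 comparisons were 85.7%, 0%, 35.7%, 78.6% and 64.3%, beside 39.9%, 6.28%, 37.8%, 44.1% and 36% of all genes. Serp1 (-1.33, adjusted p = 0.000179) and Ssr3 (-0.79, adjusted p = 0.000275), both of the translocation machinery, had the smallest p-values in EV tumors.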

How the data were processed

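Stranded, ribosome-depleted total RNA libraries were prepared from Direct-zol extracts of whole tumors, per the labels' protocols. The submitters' processing notes name FastQC, fastp, STAR, featureCounts and build GRCm38.p5, with no roles or versions. Each deposited file gives unnormalized counts per gene and the gene's exon length, per the file headers. The strand setting is not given in the sources used here. Symbols came from GENCODE M21, which matched 52489 of 52636 identifiers and left 147.

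At least 1 count was seen for 31622 genes, and filterByExpr kept 17970. After TMM scaling, edgeR 4.0.16 in R 4.3.3 fitted the 4 groups together (8 residual degrees of freedom) and gave robust quasi-likelihood F-tests, adjusted by the Benjamini-Hochberg method across all genes tested. Vectors were compared under each treatment, treatments within each vector, and the interaction was tested; several of these share a group. CPM are TMM-scaled. TPM, which use the deposited length and no TMM factor, served to compare genes and to sum marker and gene lists by group. Alternatives were DESeq2 1.42.0, its size factors within edgeR, voom with quality weights in limma 3.58.1, no low-count filter, protein-coding genes alone, the compared groups alone, the replicate number as a block, and leaving out each library.

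The members and gene lists were chosen with earlier results of these data known, so lists are described by counts and medians without a test. Full values are given for members called in the interaction or in 2 or more comparisons and for the largest change of each role; of the lists, for Atf4, Ddit3 and up to 3 genes of smallest p.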

Additional observations from a re-analysis of the deposited data

Results flagged for a closer look

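The combo effect was more positive in p53ERTAM than in EV tumors for 18 of the 38 members by the interaction term of the edgeR fit. In that comparison 34.8% of protein-coding genes were called, 23.1% higher and 11.7% lower, and 18.8% of all genes were called higher. On the log2 scale the difference of the effects, p53ERTAM minus EV, was 1.43 for Psat1, 1.11 for Asns, 1.10 for Slc7a11, 1.06 for Kars and 0.96 for Slc7a5. It was 0.92 for Gars, 0.90 for Aars, 0.86 for Mthfd2, 0.84 for Shmt2, 0.84 for Wars and 0.80 for Slc3a2. The smaller differences were 0.71 for Rars, 0.70 for Hars, 0.70 for Nars, 0.60 for Aldh18a1, 0.58 for Aimp2, 0.56 for Slc7a1 and 0.51 for Tars. Of these 18 calls 13 were kept in each of the 12 refits that leave out 1 library, and 12 of them also under every alternative setting.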

How the results depend on the processing

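No called member or median changed sign under any alternative. Scaling on protein-coding genes alone shifted the members' log2 fold changes by a median of 0.13 for combo in EV tumors, -0.05 for combo in p53ERTAM tumors, 0.07 between the vectors under vehicle, -0.11 under combo and -0.18 in the interaction. The members' median then was -0.27 for combo in EV tumors, 0.025 between the vectors under combo and 0.39 in the interaction. Between the vectors under combo 9 members were then lower, as were 24.2% of the protein-coding genes. For combo in p53ERTAM tumors DESeq2 called 7 members higher, and voom 10 higher and 2 lower. Of all genes DESeq2 called 6.74% higher and 7.08% lower there, and voom 10.4% and 10.5%, against 3.3% and 2.98% in the main fit. Between the vectors under vehicle 1 member was higher by voom and 2 were without the low-count filter, with the compared groups alone and with the replicate block. In that order 15.2%, 9.05%, 13.1% and 16.65% of all genes were higher, against 17.9% in the main fit. Under combo 7 were higher without the filter, and 8 were lower by voom and 9 with the compared groups alone. Of all genes 11.2% were higher without the filter, against 22.1% in the main fit. By voom 27.3% were lower and with the compared groups alone 28.4%, against 22%. The cause was not tested.

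Leaving out 1 library gave, for combo in EV tumors, 14 to 17 members lower and 0 to 1 higher (median -0.40 to -0.34), and in p53ERTAM tumors 0 to 7 higher and 0 to 1 lower (median 0.07 to 0.17). Between the vectors it gave 1 to 4 higher and 19 to 23 lower under vehicle (median -0.47 to -0.37) and 7 to 12 higher and 3 to 6 lower under combo (median 0.09 to 0.17). The interaction had 13 to 21 higher and 0 lower (median 0.47 to 0.65). Without p53ERTAM vehicle 1 or 2, or without p53ERTAM combo 1 or 3, no member was called for combo in p53ERTAM tumors. In these refits 0.341 to 0.593% of all genes were called higher and 0.0757 to 0.394% lower, against 3.3% and 2.98% with all libraries. Calls kept in all 12 refits numbered 13 of 16, 0 of 4, 18 of 27, 10 of 16 and 13 of 18 in the order combo in EV, combo in p53ERTAM, vectors under vehicle, vectors under combo and interaction.

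Same-numbered libraries did not deviate together: 2 of 18 pairs had a correlation of deviations over 0.1, in a range of -0.15 to 0.21. With the replicate block 16 members fell with combo in EV tumors, 3 rose in p53ERTAM tumors, 23 were lower between the vectors under vehicle, 8 were higher and 4 lower under combo, and 18 were called in the interaction, all higher. The shares of all genes called in these directions were 19.8%, 2.90%, 18.6%, 21.3%, 21.2% and 17.4%. Low counts limit Cbs most, with 4 counts in its lowest library.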

Other observations

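By class, families of synthetases that differ in their catalytic fold, 6 of the 10 class II genes (Aars, Dars, Gars, Hars, Kars, Nars, Sars, Tars, Farsa and Farsb) fell with combo in EV tumors, and 1 of the 8 class I genes (Cars, Iars, Lars, Qars, Rars, Vars, Wars and Yars), where 21.1% of all genes and 25.2% of protein-coding genes were called lower. Between the vectors under vehicle 9 of 10 class II genes and 5 of 8 class I genes were lower in p53ERTAM, beside 19.8% of all genes. These shares rest on few genes. Eprs, which joins both classes, was left out of this count, and the difference between the classes was not tested.

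Split by the promoter letters TGATGNAA, 2 of the 10 members with a match and 11 of the 19 without one fell with combo in EV tumors (medians -0.18 and -0.44). Of all genes 21.1% were called lower there, so the members with a match lay near that share. With combo in p53ERTAM tumors the medians were 0.37 and 0.03, and all 3 members of the promoter table that rose by edgeR had a match. These 3, Slc7a11, Aars and Tars, kept their calls in only 7, 8 and 6 of 12 refits. Wars, which also rose, was not in the promoter table. In the interaction 5 of the 10 and 8 of the 19 were higher (medians 0.62 and 0.50), beside 18.8% of all genes. The split was made with earlier results known and was not tested.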
